A study of Mus musculus with 6 samples.

Results

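Transcripts of 10 genes that mark neutrophils and their precursors were read out in CD11b+ cells purified from TC1 tumors grown under the skin of control (MCT2 CO) and MCT2-deleted (MCT2 KO) mice. The genes were taken by symbol from a table of 25701 genes, and all 10 were found: *S100a8*, *S100a9*, *Retnlg*, *Ly6g*, *Ngp*, *Camp*, *Ltf*, *Lcn2*, *Mpo* and *Elane*. They were chosen with the MCT2 KO against MCT2 CO contrast already known, *Ngp* having the highest log2 fold change in it, so their differences between the groups are described below without a test.

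All mice carried the loxP-flanked MCT2 (*Slc16a7*) gene and the mCre-Tg transgene on a C57BL/6 background. The MCT2 KO mice were given tamoxifen (180 µg/g daily for 5 days, at 8 weeks of age), and the MCT2 CO mice received vehicle, so that the deletion and tamoxifen itself cannot be told apart. The study describes the deletion as systemic, the promoter of the Cre is not given in the sources used here, and the injected TC1 cells, a mouse lung epithelial tumor line, came from culture and not from this cross. Tumors grew for 24 days from 100000 cells, 3 samples per group were sequenced, and CD11b+ cells were taken with magnetic beads. The labels call these cells purified macrophages. CD11b is an integrin of monocytes, macrophages and neutrophils alike, so this selection retains neutrophils.

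Neutrophils are made in the bone marrow, where their granules are filled in waves. Primary (azurophil) granules with myeloperoxidase and elastase are made first, in promyelocytes. Specific granules with lactoferrin, lipocalin-2 and cathelicidin follow in myelocytes, and gelatinase granules come later. The mRNAs of granule proteins are largely switched off by the time a neutrophil enters the blood, whereas the S100A8 and S100A9 proteins, which pair to form calprotectin, make up much of the cytosol of the mature cell and their mRNAs persist.

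Total counts were between 24863611 and 31713704 per sample. The targeted gene *Slc16a7* had 287 to 481 counts in the MCT2 CO samples and 133 to 196 in the MCT2 KO samples. Macrophage markers were abundant in every sample, with 10 of 10 measured and a summed level of 7171 to 10836 CPM (counts per 1000000 counts, after TMM normalization) in MCT2 CO and 6974 to 14703 CPM in the MCT2 KO samples. CD11b itself (*Itgam*) had 1 count in all, so the selection marker could not be read.

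The neutrophil genes were present only as a trace in all 6 samples. Together they took between 0.000864% and 0.00656% of the counts. Levels of different genes were compared per kb of exon. On that scale *S100a9* had a mean level of 6.55 CPM per kb in the MCT2 CO samples and 24.0 in the MCT2 KO samples, and *S100a8* 2.17 and 6.28. The macrophage gene *C1qa*, a complement subunit, had 1095 and 1366, and the receptor of macrophage growth factor, *Csf1r*, 162 and 181. By the mean of this level over all 6 samples, *S100a9* was above 73.2% of the 13471 genes ranked, *S100a8* above 39.5% and *Ngp* above 31.5%. The mean of *Ngp* rested largely on MCT2 KO replicate 1, at 12.5 CPM per kb, against a mean of 0.191 in the MCT2 CO samples. By the positions of the GENCODE M21 annotation, none of the 10 genes lies in the span of another gene of the table. The annotation used in the counting is not given, so loss of reads by overlap in the counting was not tested. The gene lengths given with the counts equal the whole gene span for 100% of genes. Whether reads were counted over exons or over whole spans was not tested.

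**Figure D1:**
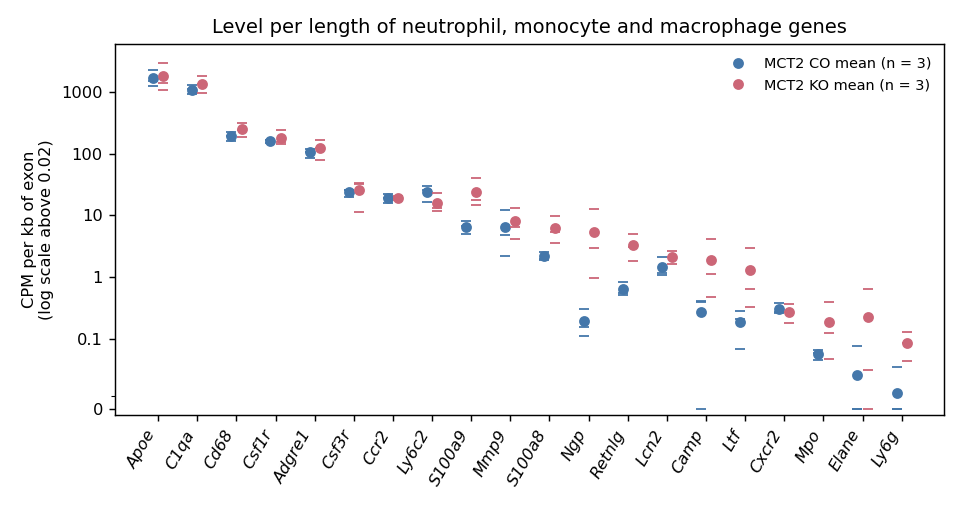
Level of the neutrophil genes beside monocyte and macrophage genes, in CPM per kb of exon, on an axis that is logarithmic above 0.02 and linear below. Circles are the means of 3 MCT2 CO or 3 MCT2 KO samples and dashes the single samples. *S100a9* was the highest of the 10 genes, at 6.55 and 24.0, far below *C1qa* at 1095 and 1366, and *Ly6g* was the lowest in both groups.

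*S100a8* and *S100a9* encode the small calcium-binding proteins of calprotectin and lie on chromosome 3 of GRCm38, from 90668978 to 90670035 on the plus strand and from 90692632 to 90695721 on the minus strand, with 22.6 kb between them. *S100a8* was at 1.33, 1.38 and 1.81 CPM in MCT2 CO replicates 1 to 3 and at 6.92, 3.71 and 2.45 in MCT2 KO replicates 1 to 3. All MCT2 KO samples were above all MCT2 CO samples, with MCT2 KO replicate 1 the highest. The means were 1.51 ± 0.259 (SD, n = 3) and 4.36 ± 2.30, which gave 1.53 ± 0.38 (standard error) as the log2 fold change. *S100a9* was at 3.5, 2.58 and 4.17 CPM in MCT2 CO against at 20.9, 9.11 and 7.63 in MCT2 KO. Here too the groups did not overlap, and MCT2 KO replicate 1 was above the other MCT2 KO samples together. Its means were 3.42 ± 0.803 and 12.6 ± 7.28 CPM (SD, n = 3), and its log2 fold change was 1.87 ± 0.39 (standard error).

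*Retnlg*, a resistin-like secreted protein of mature neutrophils, lies on chromosome 16 (48872621 to 48874496, plus strand). It had 10, 8 and 13 counts in MCT2 CO and 70, 59 and 27 in MCT2 KO. This came to 0.377 ± 0.0981 and 1.94 ± 0.932 CPM (SD, n = 3), or 2.35 ± 0.43 (standard error) as a log2 fold change, and the groups did not overlap. *Ly6g*, the surface protein by which mouse neutrophils are commonly stained (chromosome 15, 75155240 to 75159126, plus strand), had 1, 0 and 0 counts in MCT2 CO and 1, 4 and 2 in MCT2 KO. These counts sit near the 3 counts that a reading of 0 still allows, which are 0.115 CPM in MCT2 CO replicate 2 and 0.113 in replicate 3, so no difference in *Ly6g* could be read at this depth. *Ly6g* belongs to a family of close copies, whose shared reads the counting may have dropped.

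The specific granule genes *Camp*, *Ngp* and *Ltf* lie within 1195 kb of chromosome 9, with 570.1 kb between the first pair and 596.3 kb between the second. They encode the cathelicidin antimicrobial peptide, neutrophilic granule protein (a relative of the cathelicidins) and the iron-binding protein lactoferrin. *Ngp* (110419747 to 110423012, plus strand) had 4, 5 and 10 counts in MCT2 CO and 364, 118 and 29 in MCT2 KO. The means were 0.234 ± 0.127 and 6.68 ± 7.53 CPM (SD, n = 3), and the spread in MCT2 KO exceeded the mean. Its log2 fold change of 4.82 (standard error 1.02) was the highest of the 13485 genes that passed the filter on low counts, a rank that belongs to the values by which the gene was chosen. *Ltf* (111019271 to 111042767, plus strand) had 7, 25 and 19 counts in MCT2 CO and 244, 71 and 28 in MCT2 KO. Its means were 0.636 ± 0.370 and 4.51 ± 4.98 CPM, with 2.83 ± 0.86 (standard error) as the log2 fold change. MCT2 KO replicate 3 was barely above MCT2 CO replicate 2, at 1.12 against 0.961 CPM. *Camp* (109847379 to 109849617, minus strand) had 0, 8 and 8 counts against 74, 28 and 9. Its lowest MCT2 KO sample, at 0.361 CPM, lay just above its highest MCT2 CO sample, at 0.308, and the 0 counts of MCT2 CO replicate 1 allow up to 0.10 CPM.

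*Lcn2*, which encodes lipocalin-2, a binder of bacterial iron carriers that macrophages and epithelia also make, lies on chromosome 2 (32384633 to 32388252, minus strand). It had 86, 81 and 147 counts in MCT2 CO and 166, 181 and 107 in MCT2 KO. The groups overlapped, since MCT2 CO replicate 3 at 5.53 CPM was above MCT2 KO replicate 3 at 4.30. The means were 3.84 ± 1.47 and 5.60 ± 1.33 CPM (SD, n = 3). The log2 fold change, 0.55 ± 0.29 (standard error), was the lowest of the 6 genes of the 10 that could be fitted.

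The bases before the starts of *Ngp*, *Ltf* and *Camp* are shown because these were the granule genes whose groups did not overlap, and because factors of the C/EBP family are known to act on specific granule genes. The sequences are from RefSeq on GRCm38.p6, 5′ to 3′ on each gene's strand, and end before the first exon of GENCODE M21. Capitals mark matches to TTGCNNAA on either strand (TTNNGCAA on the other), a core of the C/EBP motif.
Ngp, chr9:110419558-110419746, plus strand: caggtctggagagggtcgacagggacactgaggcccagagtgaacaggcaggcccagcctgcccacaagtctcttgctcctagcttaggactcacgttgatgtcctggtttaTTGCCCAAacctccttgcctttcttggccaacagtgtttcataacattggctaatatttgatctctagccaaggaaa
Ltf, chr9:111019042-111019270, plus strand: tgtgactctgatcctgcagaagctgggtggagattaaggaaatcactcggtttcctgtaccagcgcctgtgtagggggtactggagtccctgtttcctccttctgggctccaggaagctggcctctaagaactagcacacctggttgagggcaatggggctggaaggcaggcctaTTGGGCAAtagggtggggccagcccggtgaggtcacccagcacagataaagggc
Camp, chr9:109849618-109849706, minus strand: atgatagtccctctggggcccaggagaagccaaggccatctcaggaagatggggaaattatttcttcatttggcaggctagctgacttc

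In the full windows of 250 bases before the RefSeq starts, *Ngp* held 2 matches, beginning 138 and 11 bases before the start, and *Ltf* held 1, beginning 75 bases before it. *Camp* held 0. All 10 genes were matched in the RefSeq table, and 6 held a match in at least 1 of their windows (*Ngp*, *Ltf*, *Lcn2*, *S100a9*, *Retnlg* and *Ly6g*), where 9.564% of all 32851 windows did. A match describes letters in a window and not binding.

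Per kb of exon, the primary granule genes were the lowest of the granule genes. *Mpo*, myeloperoxidase (chromosome 11, 87793581 to 87804413, plus strand), had 6, 4 and 6 counts in MCT2 CO and 32, 14 and 4 in MCT2 KO. *Elane*, neutrophil elastase (chromosome 10, 79886247 to 79888215, plus strand), had 0, 0 and 2 counts in MCT2 CO and 15, 1 and 0 in MCT2 KO. For both genes MCT2 KO replicate 1 was far above the rest and MCT2 KO replicate 3 lay within the MCT2 CO range. Their means were 0.193 ± 0.0364 and 0.644 ± 0.619 CPM for *Mpo*, and 0.0251 ± 0.0434 and 0.220 ± 0.354 CPM for *Elane* (SD, n = 3).

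**Figure D2:**
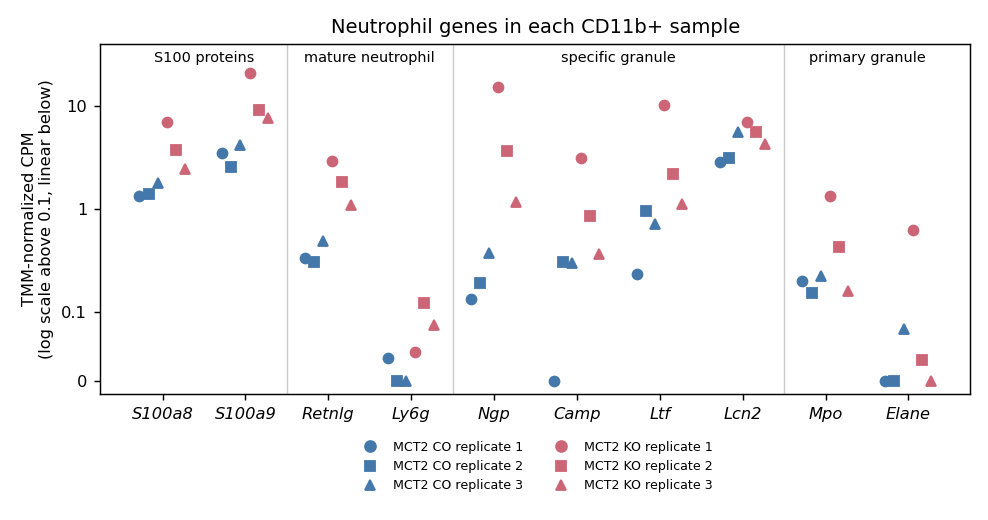
TMM-normalized CPM of the 10 genes in each of 3 MCT2 CO and 3 MCT2 KO samples, on an axis that is logarithmic above 0.1 and linear below. Each point is a sample, and the genes are ordered by the role of their product. MCT2 KO replicate 1 is the highest point in 9 of the 10 genes, and the groups overlap in *Lcn2*, *Mpo* and *Elane*.

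MCT2 KO replicate 1 was the highest of the 6 samples in 9 of the 10 genes, against 20.4% of all genes tested. MCT2 KO replicate 3 was the lowest MCT2 KO sample in the same number. The choice of the genes on this contrast favors an MCT2 KO sample as the highest, so nothing can be read from the 20.4%. All MCT2 KO samples lay above all MCT2 CO samples in 7 of the 10 genes, *Ly6g* at its few counts among them. Of all genes tested, 7.07% did so, a figure from which nothing can be read here, since the genes were chosen on this contrast. None of the 10 had all MCT2 KO samples below all MCT2 CO samples, as 8.77% of all genes did. Without MCT2 KO replicate 1 the number was again 7, with 12.9% of all genes. It was 8 without MCT2 CO replicate 3, with *Lcn2* added, where 10.5% of all genes did so. Without MCT2 KO replicate 3 it was 9, with *Lcn2* and *Mpo* added, where 9.98% of all genes did so. Both shares are above the 7.07% with all samples, since fewer samples overlap less easily.

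Only 6 of the 10 genes passed the filter on low counts (*S100a8*, *S100a9*, *Retnlg*, *Ngp*, *Ltf* and *Lcn2*). *Ngp*, *Retnlg* and *Ltf* passed only through the MCT2 KO samples, since 0, 1 and 2 of their 3 MCT2 CO samples reached the level that the filter asks of 3 samples, so genes of this kind could pass only with higher levels in MCT2 KO. *S100a8*, *S100a9* and *Lcn2* reached it in all 6 samples. A gene was called in edgeR's quasi-likelihood test when its adjusted p was 0.05 or less and its log2 fold change was 0.58 or more in size. Of all 13485 genes tested 0% were called, although 1264 (9.37%) had an unadjusted p under 0.05. DESeq2's Wald test, run without the filter on every gene that had any count, called 0.513%. No call is given for the 10 genes, since this contrast chose them. Leaving out MCT2 KO replicate 1 lowered the fold of *Ngp* from 28.2 to 10.4 and that of *Ltf* from 7.09 to 2.66. It lowered that of *S100a9* from 3.66 to 2.47, while *S100a8* went from 2.88 to 2.07, *Retnlg* from 5.10 to 3.88 and *Lcn2* from 1.46 to 1.30.

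The summed level of the 10 genes was 8.64, 9.0 and 13.7 CPM in the MCT2 CO samples and 68.3, 27.4 and 18.3 in MCT2 KO. MCT2 KO replicate 1 held more than the other MCT2 KO samples together. Without *S100a8* and *S100a9* the sums were 3.8, 5.04 and 7.71 against 40.5, 14.6 and 8.27, so MCT2 KO replicate 3 and MCT2 CO replicate 3 were close. The ratio of the group means over all 10 genes was 3.64, and 2.19 without MCT2 KO replicate 1. In bulk RNA, more cells of a type and more RNA per cell cannot be told apart.

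**Figure D3:**
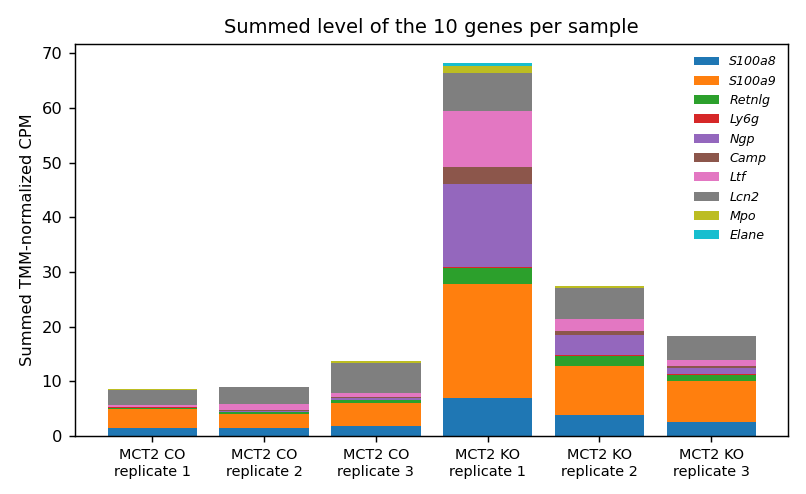
Stacked TMM-normalized CPM of the 10 genes in each sample, with 1 color per gene. The bar of MCT2 KO replicate 1 reaches 68.3, the other MCT2 KO samples reach 27.4 and 18.3, and the MCT2 CO samples lie between 8.64 and 13.7.

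Ratios between the genes were read as shares of the reads of a pair. Among the reads of *Ngp* and *S100a8* together, *Ngp* took 9.09% in MCT2 CO replicate 1 (95% exact Clopper-Pearson interval 2.53 to 21.7), 12.2% in replicate 2 (4.08 to 26.2) and 17.2% in replicate 3 (8.59 to 29.4). It took 68.8% in MCT2 KO replicate 1 (64.7 to 72.7), 49.4% in replicate 2 (42.9 to 55.9) and 32.2% in replicate 3 (22.8 to 42.9). The intervals of the 3 MCT2 KO samples did not overlap or met only at their ends, and the interval of replicate 3 overlapped those of MCT2 CO replicates 2 and 3. These intervals cover counting error only. *Ngp* was chosen with its log2 fold change known to be the highest, so a higher share in MCT2 KO was largely set by that choice.

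The share of *Lcn2* against *S100a8* was lower in MCT2 KO, although the mean level of *Lcn2* itself was higher there. It was 68.3%, 69.2% and 75.4% of the reads of that pair in MCT2 CO and 50.2%, 59.9% and 63.7% in MCT2 KO. The interval of MCT2 KO replicate 1 (44.6 to 55.7) lay below those of all MCT2 CO samples. That of MCT2 KO replicate 3 (55.9 to 71.0) overlapped all of them. *Ltf* did not separate the groups, with 14.9%, 41.0% and 28.4% in MCT2 CO and 59.7%, 37.0% and 31.5% in MCT2 KO, where replicates 2 and 3 lay inside the MCT2 CO range. *S100a9*, the partner of *S100a8* in calprotectin, held its share more closely, with 65.0% to 72.4% in MCT2 CO and 71.1% to 75.7% in MCT2 KO. Per kb of exon, the specific granule genes made up 28.4% of the 10 genes' level in MCT2 KO replicate 1 and 14.4% in replicate 3, against 12.0% to 21.3% in MCT2 CO. The *Ngp* share of that level was 16%, 8.98% and 4.06% in MCT2 KO and 1.03% to 2.11% in MCT2 CO.

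**Figure D4:**
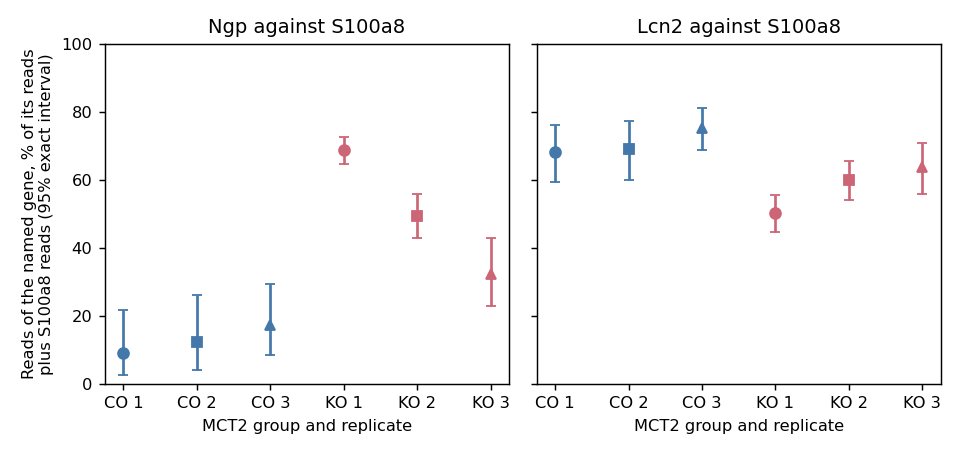
Reads of *Ngp* (left) and *Lcn2* (right) as a percentage of their own reads plus those of *S100a8*, per sample, with 95% exact binomial intervals that cover counting error only. The *Ngp* share runs from 9.09% to 17.2% in MCT2 CO and from 32.2% to 68.8% in MCT2 KO, while the *Lcn2* share is 68.3% to 75.4% in MCT2 CO and 50.2% to 63.7% in MCT2 KO. The genes were chosen on this contrast, so the shares are a description.

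Other genes of neutrophils were taken as lists. Over 5 further lists of granule, S100 and mature neutrophil genes, 30 genes were tested and 0 were called by edgeR's quasi-likelihood test. An unadjusted p under 0.05 was found for 4 of the 30 (13.3%), against 9.37% of all genes. DESeq2 on the same genes called 1 of the 30, against 79 of all 13485. The unfiltered DESeq2 fit also called 1 gene of these lists, and 0.513% of all genes. The number of list genes in that unfiltered fit was not taken, so those last figures cannot be compared. Over all genes tested the median log2 fold change was 0.000366, with 50.1% of genes above 0. Of 8 other specific granule genes 6 were tested, all with a higher mean in MCT2 KO and a median log2 fold change of 0.30. *Mmp8*, neutrophil collagenase, was at 3.14 ± 0.530 CPM in MCT2 CO and 5.71 ± 0.783 in the MCT2 KO samples (SD, n = 3) without overlap (log2 fold change 0.86, adjusted p = 0.370 in edgeR). The unfiltered DESeq2 fit called it. *Chil3*, a chitinase-like protein that macrophages and monocytes also make, was at 32.5 ± 14.6 and 64.1 ± 24.9 CPM with overlapping groups (log2 fold change 0.98, adjusted p = 0.491 in edgeR). *Anxa1*, annexin A1, was at 458 ± 50.5 and 544 ± 41.3 CPM (adjusted p = 0.547 in edgeR), and haptoglobin (*Hp*) at 12.1 ± 1.18 and 13.4 ± 3.41 CPM (adjusted p = 0.827 in edgeR).

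None of the 5 other primary granule genes passed the filter. *Prtn3*, proteinase 3, had 3, 1 and 16 counts in MCT2 CO and 10, 2 and 9 in MCT2 KO. *Ctsg*, cathepsin G, had 0, 1 and 1 counts against 10, 29 and 1, with its highest count in MCT2 KO replicate 2 and not in replicate 1. Of 4 gelatinase granule genes 3 were tested, with a median log2 fold change of 0.33. *Mmp9*, gelatinase B, was at 22.8 ± 18.6 CPM in MCT2 CO against 28.4 ± 16.9 in MCT2 KO (adjusted p = 0.891 in edgeR), the iron transporter gene *Slc11a1* at 77.8 ± 12.3 and 104 ± 44.1 (adjusted p = 0.679), and the membrane protease gene *Mmp25* at 15.1 ± 3.89 and 17.3 ± 7.06 (adjusted p = 0.865).

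In the rest of the S100 family, 9 of 13 genes were tested, 5 with a higher and 4 with a lower mean in MCT2 KO, and the median log2 fold change was 0.00297. *S100a6*, *S100a10* and *S100a11*, which many cell types express, had log2 fold changes of 0.0030, 0.22 and 0.22 (adjusted p = 0.997, 0.588 and 0.557 in edgeR). *S100a6* was at 569 ± 102 CPM in MCT2 CO against 570 ± 108 in MCT2 KO.

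The list of mature neutrophil genes was uneven. Of 23 genes 22 were in the table and 12 were tested, 8 with a higher and 4 with a lower mean in MCT2 KO, at a median log2 fold change of 0.22. The highest were *Il1r2*, the decoy receptor of interleukin-1, at 382 ± 91.0 and 445 ± 114 CPM, *Slfn4*, a schlafen gene of myeloid cells, at 291 ± 14.6 and 242 ± 74.2, *Csf3r*, the receptor of granulocyte growth factor, at 86.0 ± 13.1 and 92.8 ± 44.9, and *Trem1*, an activating receptor, at 59.1 ± 5.73 and 70.3 ± 12.9. Their adjusted p values in edgeR were 0.777, 0.693, 0.941 and 0.606. *Cxcr2*, the chemokine receptor by which neutrophils enter tissue and a gene named here after its values were seen, was at 0.936 ± 0.200 CPM in MCT2 CO against 0.838 ± 0.286 in MCT2 KO (log2 fold change -0.17, adjusted p = 0.896 in edgeR). The list thus held genes as abundant as *Il1r2* beside the far lower *Cxcr2*, and its most abundant genes are also expressed by monocytes and macrophages.

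**Figure D5:**
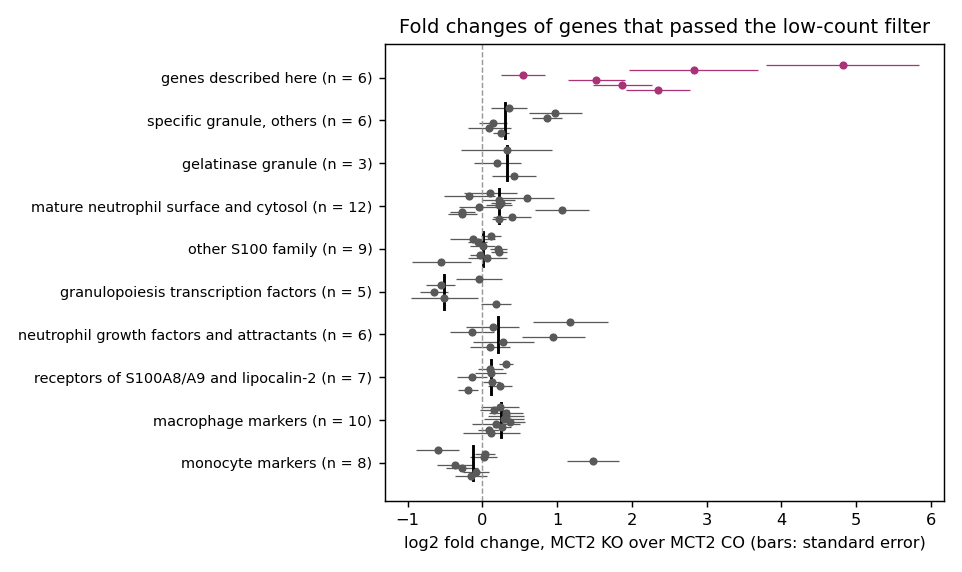
Log2 fold change of MCT2 KO over MCT2 CO, with standard errors, for the 6 of the 10 genes that passed the low-count filter and for tested genes of 9 other lists. Points are genes and black bars the median of each list. The 6 genes lie between 0.55 and 4.82, and were chosen on this contrast, while the medians of the neutrophil lists lie between 0.22 and 0.33 and that of the other S100 genes at 0.00297. *Ngp*, *Retnlg* and *Ltf* passed the filter only through the MCT2 KO samples.

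Among transcription factors of granulocyte development, the test called none. Of 6 factors 5 were tested, 1 with a higher and 4 with a lower mean in MCT2 KO, at a median log2 fold change of -0.51, which was -0.17 without MCT2 CO replicate 2 and -0.18 without MCT2 KO replicate 2. *Cebpd* was at 29.1 ± 6.44 CPM in MCT2 CO against 18.6 ± 3.38 in MCT2 KO, without overlap (log2 fold change -0.65, adjusted p = 0.426 in edgeR). *Cebpb* was at 15.1 ± 3.39 and 10.3 ± 1.78 (log2 fold change -0.55, adjusted p = 0.475), and 60.4% of its exons and 48.3% of those of *Cebpd* lie in the span of another gene, so part of their reads may be missing. *Spi1*, which encodes PU.1, was at 139 ± 22.9 and 158 ± 43.6 CPM (adjusted p = 0.799), and *Cebpa* at 52.7 ± 14.7 and 51.2 ± 21.2 (adjusted p = 0.972). *Cebpe*, the factor of specific granule formation, named here after its values were seen, had 6, 6 and 9 counts in MCT2 CO and 1, 4 and 0 in MCT2 KO, the direction opposite to that of *Ngp*, *Camp* and *Ltf*.

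Among growth factors and attractants of neutrophils, 6 of 8 were tested and 5 had a higher mean in MCT2 KO. *Cxcl2*, a ligand of *Cxcr2*, was at 659 ± 56.0 CPM in MCT2 CO against 601 ± 282 in MCT2 KO (log2 fold change -0.13, adjusted p = 0.910 in edgeR). *Cxcl1* was at 27.1 ± 7.46 and 29.9 ± 14.4 (adjusted p = 0.923) and *Cxcl3* at 2.14 ± 0.313 and 4.12 ± 2.21 (adjusted p = 0.543). *Csf2*, the granulocyte-macrophage growth factor, was at 0.865 ± 0.560 and 1.96 ± 0.462 CPM without overlap (log2 fold change 1.18, adjusted p = 0.533 in edgeR). The receptors of S100A8/A9 and lipocalin-2 were present, with 7 of 8 tested and a median log2 fold change of 0.11. *Tlr4*, the toll-like receptor to which S100A8/A9 binds, was at 42.1 ± 3.36 and 52.3 ± 3.47 CPM without overlap (log2 fold change 0.31, adjusted p = 0.429 in edgeR). Its co-receptor gene *Cd14* was at 313 ± 27.7 and 338 ± 112 (adjusted p = 0.891), and *Bsg* and *Emb*, which encode membrane proteins that bind S100A8/A9, at 430 ± 40.6 and 469 ± 46.3 (adjusted p = 0.759) and at 76.2 ± 10.3 and 90.1 ± 17.6 (adjusted p = 0.665).

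Markers of other cells were read in the same samples, since MCT2 KO replicate 1 stood apart. That sample was also the highest in 8 of the 10 macrophage markers, with a sum of 14703 CPM against 6974 to 10836 in the other 5 samples. With it 10 of 10 macrophage markers had a higher mean in MCT2 KO, and without it 5 of 10. Monocyte markers (8 of 8 tested) summed to 1946 to 2729 CPM in MCT2 CO and 1974 to 2355 in MCT2 KO, with MCT2 KO replicate 1 the lowest in MCT2 KO. Most of each sum was *Fn1*, at 1325, 1774 and 1560 CPM in MCT2 KO replicates 1 to 3. That order is therefore the order of *Fn1* and cannot be read for the other monocyte markers. Eosinophil markers (3 of 7 tested) summed to 1.6 to 1.65 CPM and 2.03 to 2.39, with *Epx* and *Prg2* at 6 counts or fewer per sample. Mast cell and basophil markers (3 of 8 tested) summed to 45.1 to 63.6 and 37.2 to 42.5 CPM. Red cell markers (1 of 6 in the table tested) summed to 0.827 to 1.65 and 0.883 to 2.01 CPM, with *Alas2* at 0 and wholly inside another gene's span. B-cell markers (7 of 8 tested) summed to 86.6 to 101 and 28 to 116 CPM, and T- and NK-cell markers (9 of 9) to 41.7 to 63.5 and 13.4 to 89.9. Tumor epithelial markers (2 of 5 tested) summed to 13.9 to 20.9 and 18.5 to 33.4 CPM, with MCT2 KO replicate 1 the highest and *Krt19* at 1 count in all. Most of each of these sums was *Cdh1*, at 32.0, 19.6 and 17.9 CPM in MCT2 KO replicates 1 to 3. The order of the samples is therefore that of *Cdh1* and cannot be read for the other tumor epithelial markers. Fibroblast and endothelial markers (8 of 8) summed to 2101 to 3373 and 1807 to 1899. The part of these cells in the neutrophil gene values was not tested.

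Genes with a pattern near that of *S100a8* and *S100a9* were sought over the 6 samples by the root mean square difference of centred log2 CPM (prior count 2). Of 13479 other genes the nearest were *Alox15*, a lipoxygenase, at 0.44, *Mansc1* at 0.45, *Jakmip3* at 0.46, *Asprv1*, an aspartic protease of the mature neutrophil list, at 0.46 and *Slc7a15* at 0.47 log2 units. *Retnlg* was nearer than any of them, at 0.29. Closeness among the 10 genes, here and below, is partly set by their choice on this contrast, so nothing can be read from it. From the mean of *Ngp*, *Ltf* and *Lcn2*, the nearest genes outside the 10 were *Jakmip3* at 0.68, *Alox15* at 0.71, *Sh2d1b2* at 0.81, *Adgrb1* at 0.88 and *Asprv1* at 0.90, whereas *Retnlg*, *S100a9* and *S100a8* were nearer, at 0.43, 0.53 and 0.57. Of the genes in that mean, *Ltf* was 0.38, *Ngp* 0.88 and *Lcn2* 0.99 away. *Alox15* had 66 counts and *Jakmip3* 73 over all samples, so these patterns rest on few reads. *Asprv1* was at 0.416 ± 0.163 CPM in MCT2 CO against 0.876 ± 0.158 in MCT2 KO without overlap (log2 fold change 1.06, adjusted p = 0.445 in edgeR).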

How the data were processed

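Poly-A RNA of CD11b+ cells from 3 MCT2 CO and 3 MCT2 KO samples was sequenced on an Illumina HiSeq with a stranded kit. The submitters' processing notes name STAR 2.7.11b, featureCounts 2.1.1 and GRCm38. The authors deposited raw counts per gene, neither normalized nor pooled. The annotation and strand setting of the counting are not given in the sources used here. Only 2.398% of the identifiers shared with GENCODE M21 had the same position in the table, so printed positions are those of GENCODE M21. The table named 21728 genes, and 3938 more were named from the reference by identifier.

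Counts were analysed with edgeR 4.0.16 in R 4.3.3: filterByExpr (minimum count 10, minimum total 15), TMM, and the quasi-likelihood test, its p values adjusted by Benjamini–Hochberg across the 13485 genes kept. The standard error is the log2 fold change divided by the square root of the F statistic. The procedure was tested on simulated counts. That simulation changed only genes above a minimum mean count, so it does not cover genes at a few counts. Alternatives used DESeq2 1.42.0, limma 3.58.1, other scaling and filters, a replicate block and each sample left out. Total counts were 24863611 to 31713704, so counting error dominates for genes at a few counts.

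The 10 genes and the lists were chosen with earlier results of these data known. Genes were named by a rule: the 10 genes, called genes, otherwise up to 4 genes per list with the highest mean CPM, and the 5 genes nearest in pattern. For lists of other cell types, sums stand in for single genes. The labels number the replicates without naming mice, so p values measure the spread between these samples. The tissue is labelled lung, but by the methods the tumors grew in the flank. No pair of replicates was alike within sampling noise.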

Additional observations from a re-analysis of the deposited data

How the results depend on the processing

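The number of genes called, 0 by edgeR's quasi-likelihood test, was 79 by DESeq2 on the same genes, 95 by DESeq2 without the low-count filter and 2 by edgeR without it, and 0 to 2 with each sample left out (2 without MCT2 KO replicate 2). It was 0 by limma-voom, with DESeq2 size factors and with a replicate block. Of the genes in the lists of other neutrophil genes and cell markers, 0 were called by edgeR, 4 by DESeq2 on the same genes (*Mmp8*, *Cd79a*, *Igkc* and *Col3a1*) and 7 by DESeq2 without the filter, and 0 with each sample left out. The median log2 fold change of the 6 neutrophil genes that passed the filter, a description since they were chosen on this contrast, was 2.11 and ran from 1.36 to 2.39 with each sample left out, lowest without MCT2 KO replicate 1. Of these genes, *Ngp*, *Retnlg* and *Ltf* passed the filter only through the MCT2 KO samples, which raises this median. The ratio of summed levels, 3.64, ran from 2.19 to 4.59. With the replicate number as a block, the median was 2.02. The numbers do not pair the samples: the deviations of same-numbered samples correlated at 0.22, -0.25 and -0.16 across genes. Without MCT2 KO replicate 1, an alternative chosen after seeing the data, the list medians were 0.27 for other specific granule genes, 0.057 for mature neutrophil genes, -0.69 for the transcription factors (-0.51 with all samples, and -0.17 to -0.69 with each sample left out) and 0.0034 for macrophage markers. The cause of these shifts was not tested.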
